A study of Homo sapiens with 11 samples.

Results

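The regions described here are the 280 peaks of a DNMT3A chromatin immunoprecipitation experiment that lie outside 4 intervals of pericentromeric sequence or ribosomal DNA. They are 280 of the 482 peaks in the authors' deposited list, or 58.1%. A peak was kept if no base of it fell in chr22 between 11.80 and 12.20 Mb, chr17 between 21.40 and 21.70 Mb, chr21 between 7.90 and 8.50 Mb, or chr4 between 49.00 and 49.40 Mb of the hg38 build. Position alone chose the peaks, but the intervals were drawn around peaks of the same list, so counts, widths and signals are descriptions and carry no test.

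The peaks compare 1 library of wild-type Z138, a human mantle cell lymphoma line given no treatment, with 1 library of knockout clone number 7 of Z138, which served as the negative control. The clone carries Cas9 fused to a red fluorescent protein and a pair of guides against DNMT3A, all switched on by doxycycline. Its library was taken after 7 days of doxycycline at 2 ng/mL. Drug, Cas9, clone and knockout differ together between these libraries and cannot be told apart, and the peaks have no replicate check. A further 9 libraries measured expression in the same clone. They are 3 uninduced libraries, 3 of day 5 and 3 of day 7, the induced ones with the same dose.

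DNMT3A is a de novo DNA methyltransferase, which adds methyl groups to cytosines that are followed by guanine, the CpG sites. Many of the loci below are segmental duplications, long stretches that recur nearly letter for letter elsewhere in the genome, or tandem arrays, in which a unit with its gene is repeated head to tail. A short read from such a stretch can match several copies, and how the authors' alignment placed such reads is not given in the sources used here. Beta-defensins are small antimicrobial peptides made by epithelia, and their genes sit on 8p in a block known to vary in copy number between people. FAM90A, USP17L and POTE are primate gene families that grew by duplication.

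Promoter windows show the duplication at the level of letters. Of 34943 distinct windows in a RefSeq table of GRCh38.p14, each 300 bases long with 250 before and 50 after an annotated start, 22 were touched by the 280 peaks, or 0.0630%. They belonged to 17 genes. A near-identical copy was taken as another of these windows, at least 10 kb away or on another chromosome, with at least 95% of letters matched. Such a copy was found for 7 of the 22, or 31.8%, and for 1.42% of all windows. Sequence outside the windows was not searched, so a window without such a copy may still recur in the genome. All 7 matched their best copy letter for letter. The 22 windows were chosen by the peaks, and these shares are given without a test.

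The windows that follow are printed because 4 of them have an identical copy that no peak touched, while the window with the most CpG sites has none. CpG sites are in capitals. They come from RefSeq, GRCh38.p14, and read 5′ to 3′ on the gene's strand. SLX1B encodes a subunit of a structure-specific nuclease that resolves DNA junctions. Its window, chr16:29454283-29454582 on the plus strand, held 25 CpG sites, and the window of SLX1A at chr16:30193625-30193924 has the same letters.
SLX1B: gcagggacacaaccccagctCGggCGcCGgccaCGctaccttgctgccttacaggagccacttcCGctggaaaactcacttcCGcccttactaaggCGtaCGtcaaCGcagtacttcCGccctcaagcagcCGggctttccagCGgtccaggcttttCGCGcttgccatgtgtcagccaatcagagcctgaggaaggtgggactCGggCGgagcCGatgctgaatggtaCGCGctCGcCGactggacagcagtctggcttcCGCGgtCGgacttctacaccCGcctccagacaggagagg
SULT1A4 encodes a sulfotransferase that acts on catecholamines. Its window, chr16:29459663-29459962 on the plus strand, held 0 CpG sites and is shared with SULT1A3 at chr16:30199005-30199304.
SULT1A4: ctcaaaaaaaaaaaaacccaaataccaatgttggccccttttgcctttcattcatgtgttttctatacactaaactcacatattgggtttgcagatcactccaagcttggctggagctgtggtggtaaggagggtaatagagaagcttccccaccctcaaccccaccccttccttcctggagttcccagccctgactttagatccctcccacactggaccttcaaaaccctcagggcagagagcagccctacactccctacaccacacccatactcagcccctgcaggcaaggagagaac
LRRC37A2 encodes a leucine-rich repeat protein of a family spread by duplication on chromosome 17. The window of 1 of its annotated starts, chr17:46512460-46512759 on the plus strand, held 11 CpG sites and is shared with LRRC37A at chr17:46294881-46295180.
LRRC37A2: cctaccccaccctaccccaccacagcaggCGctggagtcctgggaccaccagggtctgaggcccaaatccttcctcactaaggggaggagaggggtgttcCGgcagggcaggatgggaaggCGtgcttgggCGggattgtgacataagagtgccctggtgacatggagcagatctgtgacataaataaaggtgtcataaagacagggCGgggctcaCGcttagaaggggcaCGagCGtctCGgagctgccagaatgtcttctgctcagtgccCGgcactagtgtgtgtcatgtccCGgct
TP53TG3F belongs to a family of near-identical copies on the proximal short arm of chromosome 16. Its window, chr16:33459362-33459661 on the plus strand, held 17 CpG sites, and 4 near-identical copies were found, of which the window of TP53TG3D at chr16:32253036-32253335 was the best match.
TP53TG3F: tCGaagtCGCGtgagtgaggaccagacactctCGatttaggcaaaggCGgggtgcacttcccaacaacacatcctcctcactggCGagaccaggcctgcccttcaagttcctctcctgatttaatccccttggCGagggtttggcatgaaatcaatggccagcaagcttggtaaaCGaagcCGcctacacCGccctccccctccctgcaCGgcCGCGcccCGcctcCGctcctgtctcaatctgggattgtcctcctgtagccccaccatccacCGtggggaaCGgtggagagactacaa
PTPN18 encodes a tyrosine phosphatase. Its window, chr2:130355806-130356105 on the plus strand, held 40 CpG sites, the most of the 22. It had no near-identical copy among the windows searched.
PTPN18: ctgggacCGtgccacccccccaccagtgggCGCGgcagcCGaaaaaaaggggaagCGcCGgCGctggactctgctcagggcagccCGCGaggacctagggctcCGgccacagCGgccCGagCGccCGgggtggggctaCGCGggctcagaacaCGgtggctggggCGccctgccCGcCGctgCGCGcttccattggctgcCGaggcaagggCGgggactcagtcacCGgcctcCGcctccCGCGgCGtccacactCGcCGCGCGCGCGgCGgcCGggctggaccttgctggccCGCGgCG

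A diverged pair shows the other case. MZT2B encodes a small protein of the gamma-tubulin complexes that start microtubules. Its window, chr2:130182012-130182311 on the plus strand, held 35 CpG sites and lay in a peak with a signal of 7627. The window of its duplicate MZT2A, chr2:131492348-131492647 on the minus strand, held 37 CpG sites and lay in no peak. The 2 windows matched at 92.7% of letters, with 22 edits between them.
MZT2B: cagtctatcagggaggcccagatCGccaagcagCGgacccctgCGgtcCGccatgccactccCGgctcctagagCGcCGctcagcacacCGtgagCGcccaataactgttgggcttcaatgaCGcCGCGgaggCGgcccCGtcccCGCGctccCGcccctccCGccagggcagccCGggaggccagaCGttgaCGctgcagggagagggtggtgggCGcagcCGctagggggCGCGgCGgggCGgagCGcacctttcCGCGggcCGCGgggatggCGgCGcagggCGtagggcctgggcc
MZT2A: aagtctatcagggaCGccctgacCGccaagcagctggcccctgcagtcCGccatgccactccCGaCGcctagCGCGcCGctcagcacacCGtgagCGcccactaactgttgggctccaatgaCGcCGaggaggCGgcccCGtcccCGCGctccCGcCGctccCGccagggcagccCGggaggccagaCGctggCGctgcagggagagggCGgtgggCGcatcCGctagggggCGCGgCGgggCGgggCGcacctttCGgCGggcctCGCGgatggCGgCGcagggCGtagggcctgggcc
TUBA3E, an alpha-tubulin gene under the same peak as MZT2B, matched its duplicate TUBA3D equally, at 92.7% with 22 edits. In all, 12 near-identical copies of the 22 windows were found, and 0 of the 12 lay in a peak. The median window in a peak held 20 CpG sites, with a range of 0 to 40, against 14 for all windows, and 62.7% G and C, against 58.7%. A CpG was present in 96.0% of all windows, so its presence sets none apart.

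Most of the 280 peaks were short and weak, and a few broad ones held most of the sequence. Width ran from 98 to 97898 bp, with a median of 1179 bp and quartiles of 546.5 and 2808.5 bp. The 202 peaks inside the intervals had a median of 619 bp and ran from 49 to 138987 bp. The 280 peaks covered 1264.07 kb, or 76.0% of the sequence in all 482, and the 202 covered 399.35 kb. At least 10 kb wide were 27 of the 280, and these held 66.9% of their sequence. Inside the intervals 3 peaks were that wide and held 49.1%.

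The caller gave each peak a signal, the area of its significance above a threshold summed over the peak, which grows with width. The score is that signal per base times 1000, stopped at 1000. Signal had a median of 150 in the 280 peaks, with a range of 20.4 to 85448, against a median of 84.3 and a maximum of 537725 inside the intervals. Width and signal had a Spearman rank correlation of 0.871 across the 280 peaks, which follows from how the signal is built. The score reached its cap of 1000 in 7 of the 280 peaks and in 11 of the 202. Outside the intervals the peaks were wider at the median, and the highest signals lay inside.

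The −log10 of the caller's p at the summit, which is not adjusted for the number of positions tested, had a median of 2.29 in the 280 peaks, with a range of 2.07 to 10.0. Inside the intervals the median was 2.37 and the maximum 21.8. A value of at least 3 was reached by 21 of the 280 peaks, or 7.5%, and by 31 of the 202, or 15.3%. The file gave no adjusted p-value: its column for one held −1 in all 482 rows. Among the 280, 48 shared their exact −log10 p with another peak and 17 their exact width.

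The nearest kept and left-out peaks were far apart, so the edges of the intervals decided nothing. Of the kept peaks, the one nearest an interval was chr21:10324984-10325980, 1825 kb beyond its edge. On chromosomes 17, 22 and 4 the nearest lay 5182, 6693 and 14044 kb away. Of the left-out peaks, the ones nearest an edge lay 10.1 kb inside it on chromosome 17, 16.1 kb on 22, 26.2 kb on 21 and 74.3 kb on 4.

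The 280 peaks fell on 19 chromosomes and were strongly clustered. With peaks joined when 100 kb or less apart, they formed 49 regions. A region was called dense if it held at least 10 peaks. The 6 dense regions held 210 peaks, or 75.0%, and 84.1% of the covered sequence. A further 8 groups of 2 to 9 peaks held 35, and 35 regions were a single peak.

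**Figure D1:**
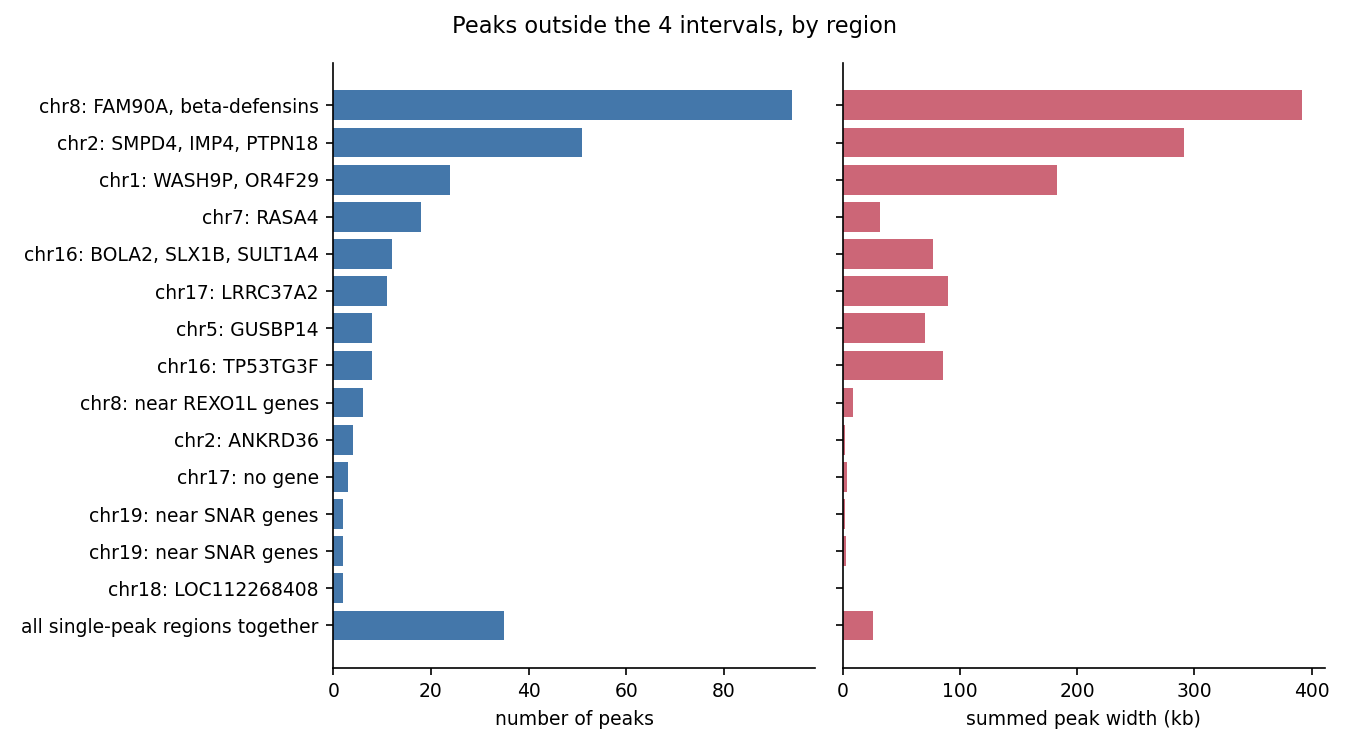
Number of peaks (left) and summed peak width in kb (right) for each region of 2 or more peaks and for the 35 single-peak regions together. The chromosome 8 region with FAM90A and beta-defensin genes holds 94 peaks, and the 35 single-peak regions together cover less sequence than each of 8 of the larger regions.

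The largest region was chr8:7577042-8027984, with 94 of the 280 peaks, or 33.6%. Peaks covered 391 of its 451 kb, or 86.8%, with a median gap of 351 bp between neighbours. The next was chr2:130086662-130419436, with 51 peaks over 87.6% of 333 kb. It was built of middling peaks: 14 of them were at least 10 kb wide, and none exceeded a −log10 p of 2.70. The third was chr1:187714-474410 near the end of the short arm, with 24 peaks over 63.7% of 287 kb. Then came chr7:102572848-102633319, with 18 peaks over 52.7% of 60.5 kb, and chr16:29417865-29499721, with 12 peaks over 93.8% of 81.9 kb. The last dense region, chr17:46398538-46518612, had 11 peaks over 74.7% of 120 kb.

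The 10 peaks of highest signal held 73.1% of the summed signal and 598 kb, and 8 of them lay in dense regions. The highest, chr1:259023-350473, was 91451 bp wide with a signal of 85448 and covered only non-coding RNA genes, pseudogenes and a glycine tRNA gene. Next came chr17:46434920-46512378 in LRRC37A2, 77459 bp wide with a signal of 59027, and chr16:29434701-29496326 over SLX1B and SULT1A4, 61626 bp wide with a signal of 52593. The −log10 p values of these 3 peaks were 3.96, 3.64 and 3.74. They were followed by neighbours on chromosome 8, chr8:7687696-7772780 with 50488 and chr8:7585051-7682948 with 49872. The peak chr8:8005239-8027984 was 22746 bp wide, with a signal of 33141 and a −log10 p of 6.55. The others were chr5:70339260-70388121 with 29062, chr16:33387842-33445769 with 17706, chr1:426987-449414 with 8128 and chr2:130173290-130205447 with 7627.

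**Figure D2:**
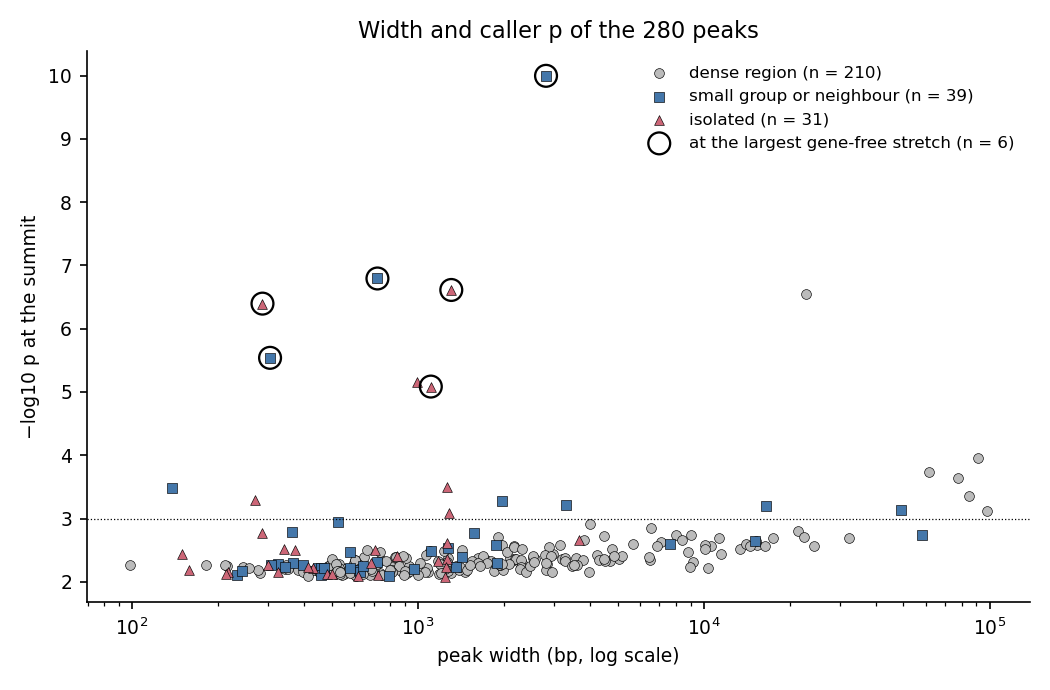
Width in bp (log scale) against −log10 p at the summit for each of the 280 peaks, with points marked by class: dense region, small group or neighbour, and isolated. The dotted line marks a −log10 p of 3, and the 6 ringed peaks at a chromosome's largest gene-free stretch lie at 5.09 or above.

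In the chromosome 8 region the FAM90A genes lay under the peak of highest signal and the peak of highest −log10 p. FAM90A genes encode proteins of unknown function. Peaks overlapped 11 of 28 annotated members, all 11 protein-coding, and covered 10 over their whole length. The peak chr8:7687696-7772780 alone covered 8 of them, FAM90A14, FAM90A18, FAM90A16, FAM90A8, FAM90A17, FAM90A19, FAM90A9 and FAM90A10. Their starts were 7647 or 7648 bp apart. The peak chr8:8005239-8027984 covered FAM90A11 and FAM90A24 and ended in FAM90A12, of which it took 11.6%. In that second array the starts were 7646 to 7648 bp apart, so one unit length recurs in both arrays. The other 17 annotated FAM90A genes were in no peak.

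The beta-defensin genes of the same region were covered by many small peaks. The list of beta-defensins and the related epididymal gene SPAG11 had 59 annotated members, and 25 peaks overlapped 9 of them. Coverage was 94.2% of DEFB107A, 93.0% of DEFB103A, 92.6% of DEFB106A and 89.4% of DEFB4A. It was 83.8% of DEFB104A, 76.3% of SPAG11A and 57.2% of DEFB105A. The other 2, DEFB108A and DEFB109C, are annotated as pseudogenes and were covered over 79.8% and 96.6%. The highest signal over a defensin A copy was 753, at DEFB107A, and that over the pseudogene DEFB109C was 821. Both were below the 50488 and 33141 over the FAM90A arrays. Signal grows with width, and the peaks over the arrays were broad. The −log10 p was at most 2.41 at DEFB107A and 2.55 at SPAG11A, the highest of the 9 genes, against 3.36 and 6.55 over the arrays.

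Only one side of the duplicated defensin block was in peaks. All 7 gene pairs with an A and a B copy in it had the A copy in peaks and the B copy in none. The A copies spanned chr8:7811720-7896716, where 37 peaks covered 77.3% of 85.0 kb. The B copies spanned chr8:7414855-7509311, where 0 peaks fell in 94.5 kb.

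**Figure D3:**
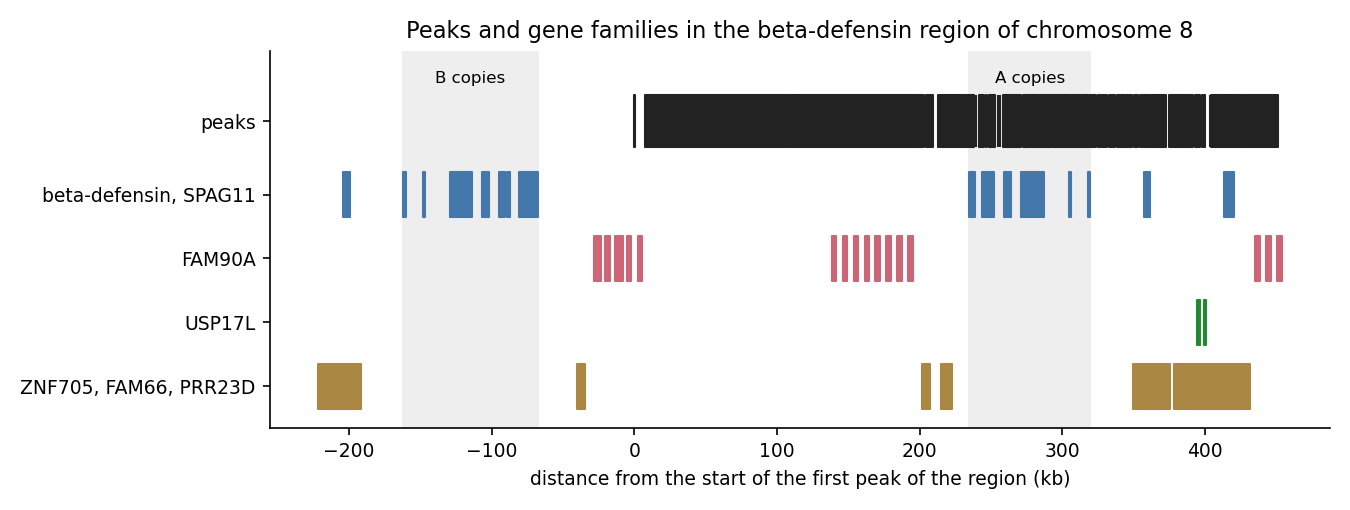
Peaks (top row) and annotated genes of 4 families along chromosome 8, with distance in kb from the start of the region's first peak. Shading marks the blocks that hold the 7 A copies, 77.3% covered, and the 7 B copies, with 0 peaks.

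Promoter windows of genes on chromosome 8 were not analysed here, so the 22 windows above come from other chromosomes. Other families of the region were reached in part. USP17L genes encode deubiquitinating enzymes, and 2 of 29 were overlapped, USP17L8 over its whole length and USP17L3 over 47.1%. Of 18 genes of the FAM66, ZNF705 and PRR23D families, 4 were overlapped: the zinc finger gene ZNF705B over 75.9%, the non-coding FAM66E over 85.1%, PRR23D3P over 86.5% and PRR23D2 over 56.4%. ZNF705B was the 1 gene overlapped of 702 annotated zinc finger genes. The broad peak chr8:7585051-7682948 covered the olfactory receptor pseudogene OR7E157P, and a related pseudogene, OR7E154P, lay under the peak of the FAM90A array.

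On chromosome 2 the peaks ran through protein-coding genes and pseudogenes, with a median gap of 289 bp and a largest gap of 21.8 kb. CCDC74B, MZT2B, TUBA3E and IMP4, whose product helps process ribosomal RNA, were covered whole. SMPD4, a sphingomyelinase gene, was covered over 97.3%, PTPN18 over 99.1%, the proton pump assembly gene VMA22 over 94.3% and POTEF over 28.7%. Between them 9 peaks overlapped 11 pseudogene copies of mitochondrial genes at chr2:130271786-130283329, of 474 such copies annotated. The copies were covered over 4.05% to their whole length, with a highest signal of 3382.

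On chromosome 16, 1 peak covered all 5 overlapped genes of the BOLA2, SLX1 and SULT1A list of 12, each whole, and 61.9% of NPIPB12 lay in 4 peaks. BOLA2 takes part in iron-sulfur protein maturation, and NPIPB12 belongs to the family that marks the duplications of this arm. The second chromosome 16 group, chr16:33383876-33475885, had 8 peaks over 92.9% of 92.0 kb, with TP53TG3F covered over 91.9%. On chromosome 17 all 11 peaks lay in the annotated span of LRRC37A2, 676 kb long, and covered 13.3% of it.

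The chromosome 1 region lies next to the telomere of 1p, where WASH and olfactory receptor genes recur on many chromosome ends. WASH9P, a pseudogene of an actin-regulating complex, was covered over 52.0%, and the olfactory receptor OR4F29 over 55.5%. These were 2 of 78 genes in the list of WASH, OR4F and FAM41 genes. On chromosome 7 the peaks overlapped RASA4, a Ras GTPase-activating protein, over 36.8%. Of the 18 peaks in the chromosome 7 region the highest −log10 p was 2.91, and of the 9 that overlapped RASA4 it was 2.73. The window of the non-coding LOC124901714 there recurs letter for letter at LOC124901713.

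Several smaller groups sat in or beside tandem arrays of other kinds. Near REXO1L exonuclease-like copies, chr8:85723400-85760555 had 6 peaks with signals of 41.1 to 1307 and overlapped no gene. Its peaks lay 2.11 to 7.46 kb from the nearest annotated gene. Of the 4 peaks beside SNAR genes, small non-coding RNAs in tandem arrays on chromosome 19, chr19:47924178-47926150 was the strongest, with a signal of 774 and a −log10 p of 3.28. It lay 0.279 kb from SNAR-A3. On chromosome 5, chr5:70284528-70405256 had 8 peaks over 58.3% of 121 kb in a known segmental duplication, the first of them over the end of the pseudogene GUSBP14. ANKRD36, an ankyrin repeat gene of chromosome 2, held 4 weak peaks with signals of 31.7 to 53.4, the 1 gene overlapped of 40 in its list.

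Many duplicated families, matched by gene symbol, had no member in a peak outside the intervals. Peaks overlapped 0 of 23 TBC1D3 genes, 0 of 6 CCL3L and CCL4L genes, 0 of 56 GOLGA genes and 0 of 27 NBPF and NOTCH2NL genes. The count was also 0 of 17 SMN, SERF1, GTF2H2, NAIP and OCLN genes and copies, 0 of 31 PRAMEF genes and 0 of 378 immunoglobulin genes. The SMN list does not hold GUSBP14 or the non-coding LOC105379021, which the chromosome 5 peaks overlapped. The list of small nuclear RNA genes with RNU or RNVU symbols had 0 of 1862, while 2 genes annotated as small nuclear RNAs under other symbols were overlapped, as given below. The MTRNR2L list had 0 of 13. Of 557 genes in the ribosomal RNA list none was overlapped by the 280 peaks, and 14 were by the 202 left out.

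Over all 280 peaks, 129 annotated genes were overlapped by at least 1 base. Of these 57 were protein-coding, 44 pseudogenes, 21 long non-coding RNAs, 2 tRNAs and 2 small nuclear RNAs, with 1 miRNA, 1 snoRNA and 1 other RNA. Whole length was covered in 48, 19 of them protein-coding. Chromosome 8 had 23 of the protein-coding genes, chromosome 2 had 9, 16 had 7 and 7 had 5. A gene was overlapped by 217 of the 280 peaks, or 77.5%, and by 74 of the 202, or 36.6%. A protein-coding gene was overlapped by 114 of the 280, or 40.7%, and by 0 of the 202. The pseudogene LOC124901865 has an annotated span of 451 kb that took in 92 of the peaks on chromosome 8. Without it 180 of the 280, or 64.3%, overlapped a gene.

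Isolated peaks, with no other peak of the list within 1 Mb, numbered 31 of the 280. They lay on 16 chromosomes and covered 24.2 kb, or 1.91% of the sequence. Their median width was 616 bp, with a range of 150 to 3665 bp, against 1401.5 bp in dense regions. Their median signal was 152 and their highest 2129. A gene was overlapped by 17 of the 31, or 54.8%, and a protein-coding gene by 11, or 35.5%. The other 14 lay 4.66 to 234.2 kb from the nearest gene, with a median of 35.4 kb. For 6 of the 31 there was no other peak on the chromosome.

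The strongest isolated peak inside a protein-coding gene was chr8:26556267-26557532 in DPYSL2, which encodes a protein of axon growth. It was 1266 bp wide, with a signal of 1787, a −log10 p of 3.50 and a score at the cap of 1000. The peaks chr10:64992012-64993277, in no gene, and chr11:18467893-18469158, in the testis lactate dehydrogenase gene LDHAL6A, had the same width of 1266 bp to the base. Their signals were 678 and 274, and their −log10 p values 2.62 and 2.36. The summits stood 1229, 563 and 442 bp from the start in the chromosome 8, 10 and 11 peaks. No other width was shared by 3 of the 280 peaks. Their sequences were not analysed here. A peak of similar size, chr5:92250199-92251482 with 1284 bp, lay 72.6 kb from any gene and had a signal of 1204 and a −log10 p of 3.09.

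Another isolated peak lay in a known tandem array. DUX4 encodes a germline transcription factor and lies in the macrosatellite array at the end of 4q. Its peak, chr4:190177615-190177883, was 269 bp wide, with a signal of 169 and a −log10 p of 3.29, and was the 1 overlapped of 76 genes of the FRG and DUX4 list. The widest isolated peak, chr17:43237579-43241243 with 3665 bp and a −log10 p of 2.66, covered the annotated small nuclear RNA gene LOC124904135 whole and 33.5% of LOC124904136. Peaks at chr7:73076445-73076728 and chr7:74904712-74905052 lay in SPDYE9 and SPDYE12, genes of a duplicated family of cyclin-dependent kinase activators, with −log10 p values of 2.77 and 2.51. The peak chr22:18892539-18892910 lay in the non-coding FAM230F, with 2.51. These are loci where the same or related genes recur nearby.

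A further 9 isolated peaks inside genes were all weaker than the DPYSL2 peak. In DPP8, a cytosolic peptidase gene, chr15:65506602-65507030 had a signal of 73.7, and in the helicase gene HELZ chr17:67082537-67083378 had 184. In CCSER1 chr4:90467732-90468909 had 255, in the cadherin gene CDH19 chr18:66599267-66599416 had 40.6, and in SPMIP7 chr7:50125194-50125675 had 37.2. In the protocadherin gene PCDH11Y chrY:5485525-5486767 had 26.9 and the lowest −log10 p of all 280, 2.07. Non-coding LINC00922 (chr16:65464791-65466041) had 156, LINC01414 (chr8:64028724-64029023) had 74.4 and the pseudogene GUCY1B2 (chr13:51037325-51037541) had 29.6. The highest −log10 p of these 9 peaks was 2.44.

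The remaining isolated peaks lay in no gene. The weakest 8 were chr13:62582713-62583399, chr17:37968034-37968446, chr3:82625975-82626132, chr4:34955211-34955533, chr4:130881106-130881319, chr5:29903522-29904137, chr8:122990419-122991144 and chrX:4934198-4934698. Their signals ran from the 21.1 of the second chromosome 4 peak to the 152 of the chromosome 13 peak. The peak chr18:73863862-73864567 had a signal of 287 and a −log10 p of 2.51. A pair of peaks on chromosome 13, chr13:64065300-64065531 in LINC00355 and chr13:64824881-64825247, and a pair on chromosome 18, chr18:64840514-64840962 and chr18:65375690-65376051, had another peak within 1 Mb but not within 100 kb. Their highest −log10 p was 2.79. A group of 2 at chr18:107050-108011 lay in the non-coding LOC112268408, where the narrower peak had a −log10 p of 3.48. The isolated peaks with the highest −log10 p are given next.

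The label of the set did not hold for its most significant peaks. Of the 8 peaks with a −log10 p of at least 5, 6 lay in or within 1 Mb of the largest stretch without an annotated gene on their chromosome. On chromosomes 16, 17 and 18 this stretch takes in the centromere, and on the acrocentric chromosome 13 most of the short arm. Position next to these stretches was not part of the rule, which named only 4 intervals. These peaks are therefore called by their place and not as lying outside pericentromeric DNA. The 6 had a median −log10 p of 6.50, with a range of 5.09 to 10.0, and the other 274 peaks a median of 2.29 and a maximum of 6.55.

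Of the 6, 3 made up a group on chromosome 17, within the gene-free stretch chr17:22705637-26981691. The peak chr17:26882268-26885075 had the highest −log10 p of the 280, 10.0, and a signal of 7033, and chr17:26885290-26885593 and chr17:26885797-26886518 had 5.54 and 6.79. The peak chr16:46387914-46388199, 286 bp wide, had a −log10 p of 6.40 inside the stretch chr16:36102206-46469336. The peak chr18:20939262-20940570 had 6.61 and a signal of 2129 inside chr18:15330264-20946905, 6.34 kb from ROCK1, a kinase gene at its edge. The peak chr13:18212367-18213476 in the non-coding FAM230C had 5.09 and lay 35.6 kb beyond the stretch chr13:409913-18176736. The 6 ran from 286 to 2808 bp in width, with a median of 916 bp, against a median of 1180.5 bp in the other 274 peaks.

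The other 2 of the 8 were the FAM90A peak on chromosome 8, with 6.55, and chr21:10324984-10325980, with 5.16. The chromosome 21 peak lay 324 kb from the second-largest gene-free stretch of its chromosome, chr21:10649836-13038165. Without the 6 peaks at the largest stretches, 274 peaks remained, of which 15 had a −log10 p of at least 3. Only 3 of the 10 peaks with the highest −log10 p were also among the 10 with the highest signal.

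Expression is a readout that the choice of peaks did not use, and the same clone was measured before and after induction. The libraries had the marks of mantle cell lymphoma cells: CCND1, the cyclin D1 gene, lay between 963 and 1162 TPM, CD79A between 293 and 381 and SOX11 between 25.4 and 53.2, though CD5 was listed at 0 in all 9. DNMT3A transcript was 10.1, 9.71 and 10.4 TPM in the uninduced libraries. It was 18.9, 10.9 and 10.0 TPM for day 5 and 10.96, 9.24 and 10.0 TPM for day 7, and the 3 groups overlapped. Neither the edit nor the protein is seen in TPM. Markers of other cells were low, with CD14 at most at 0.505, apart from COL1A1 at 7.04 to 16.1 TPM. The immunoprecipitation libraries cannot be checked by markers.

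Of the 129 genes overlapped by the peaks, 88 were found in the expression table, 78 by symbol and 10 by an older name. Of 48 protein-coding genes found, 23 were listed at 0 TPM in all 9 libraries. All 18 FAM90A, USP17L, beta-defensin and SPAG11 genes found were listed at 0 in every library. Genes under some of the highest signals were thus listed at 0 with and without induction. Reads that match several copies may be missing from such values, which was not tested. The 10 mitochondrial copies found reached at most 0.0532 TPM. In bulk RNA fewer cells with a transcript and less of it per cell cannot be told apart.

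The 10 overlapped protein-coding genes of highest mean TPM were on chromosomes 2, 16 and 8. Values are mean TPM with the SD of 3 libraries. MZT2B was highest, with 298 ± 62.5 in uninduced libraries, 266 ± 39.0 at day 5 and 250.2 ± 69.5 at day 7. IMP4 had 98.5 ± 13.2 uninduced, 86.3 ± 14.0 at day 5 and 87.4 ± 11.5 at day 7. SMPD4 had 62.9 ± 9.28 uninduced, 58.2 ± 9.75 at day 5 and 66.2 ± 6.87 at day 7. These 3 genes share the chromosome 2 region. NPIPB12 had 87.3 ± 8.47 uninduced, 87.7 ± 6.35 at day 5 and 82.4 ± 7.22 at day 7. SLX1B had 33.5 ± 5.97 uninduced, 31.0 ± 2.15 at day 5 and 27.0 ± 5.75 at day 7. DPYSL2, with the isolated peak, had 52.5 ± 4.34 uninduced, 55.4 ± 9.19 at day 5 and 55.0 ± 5.81 at day 7. In 5 of these 6 genes the group means lay closer together than the largest SD, and SLX1B was the exception. PTPN18 averaged 28.8 uninduced, 28.1 at day 5 and 32.2 at day 7, and CCDC74B 27.0 uninduced, 30.6 at day 5 and 22.9 at day 7. VMA22 averaged 23.3 uninduced, 22.9 at day 5 and 23.0 at day 7.

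**Figure D4:**
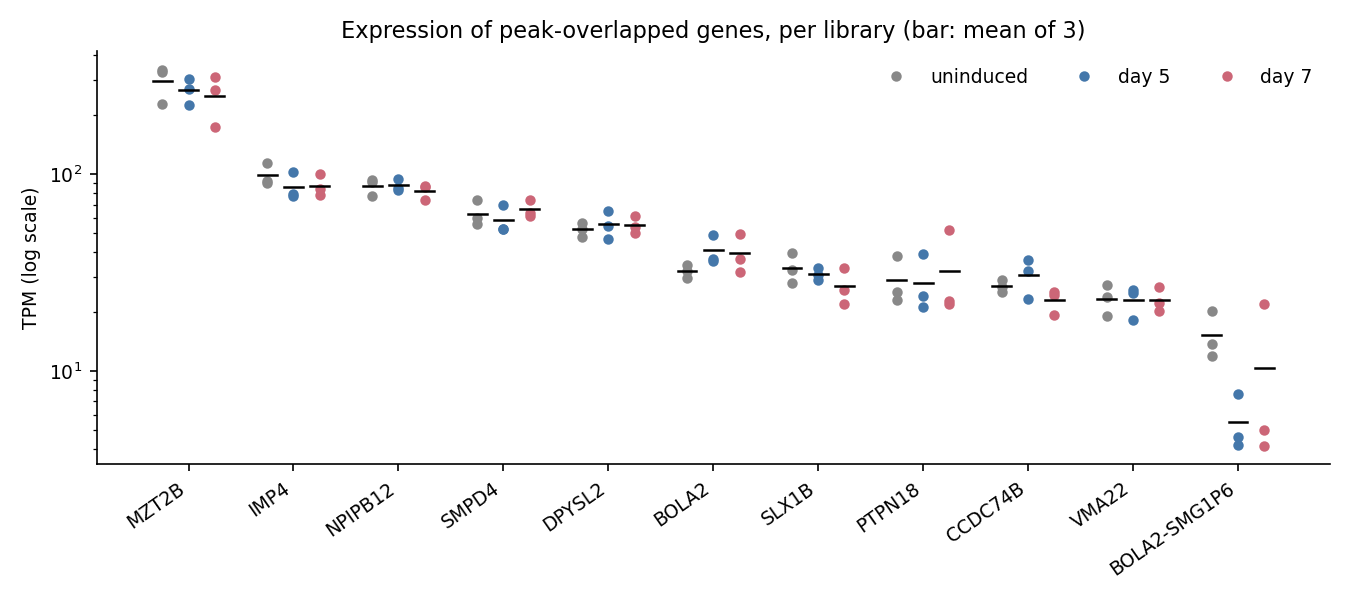
TPM per library (log scale) for the 10 overlapped protein-coding genes of highest mean TPM and BOLA2-SMG1P6, with points for 3 uninduced, 3 day 5 and 3 day 7 libraries and a bar at each mean. Each induced group overlaps the uninduced libraries, except that the day 5 libraries lie all below them for BOLA2-SMG1P6 and all above them for BOLA2.

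No overlapped gene passed the test after induction. With limma on log2(TPM + 1), Benjamini-Hochberg adjusted over 15045 rows, 0 of the 28 overlapped genes tested passed an adjusted p of 0.05 at day 5, where 0.00665% of all rows did (1 of 15045). At day 7 the count was 0 of 28, and 0% of all rows passed. At an unadjusted p under 0.05 limma gave 1 of 28 at day 5, against 1.99% of all rows, and 0 of 28 at day 7, against 2.24%. These unadjusted counts moved with single libraries. At day 5 the count was 0 without uninduced replicate 1, day 5 replicate 1 or day 5 replicate 3, and 2 without uninduced replicate 2 or 3. At day 7 it was 1 without uninduced replicate 1, day 5 replicate 3 or day 7 replicate 1, and 3 of 27 without day 7 replicate 3, where 3.22% of all rows had such a p. The median log2 fold change of the 28 was −0.032 at day 5, with 12 genes higher and 16 lower, against −0.018 over all rows, of which 45.3% were higher. At day 7 it was −0.064, again with 12 higher and 16 lower, against −0.021, with 44.9% higher. Both times share their uninduced libraries.

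The 1 gene at an unadjusted p under 0.05 was BOLA2-SMG1P6, a readthrough of BOLA2 into the pseudogene SMG1P6. It had 20.1, 11.9 and 13.8 TPM in uninduced libraries, 4.64, 7.64 and 4.19 at day 5, and 21.7, 5.03 and 4.17 at day 7. The day 5 libraries all lay below the uninduced ones, and at day 7 replicate 1 lay above them while the other 2 lay below. The log2 fold change was −1.33 (SE 0.50) at day 5 and −0.84 (SE 0.50) at day 7, with a limma adjusted p of 1.00 at both. Its reads overlap those of BOLA2 and SMG1P6, and how they were shared is uncertain. BOLA2 averaged 32.2 ± 2.51 TPM in uninduced libraries, 40.9 ± 7.24 at day 5 and 39.5 ± 9.17 at day 7, with log2 fold changes of 0.32 and 0.27, and SMG1P6 averaged 1.81 TPM uninduced, 3.92 at day 5 and 2.19 at day 7.

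Other genes of smallest p also failed the adjusted test. At day 5 the log2 fold change was −0.32 for RASA4 and −0.19 for IMP4. At day 7 it was −0.44 for RASA4, −0.30 for SLX1B and −0.29 for ANKRD36. RASA4 was low throughout, at 2.11 ± 0.47 TPM in uninduced libraries, 1.49 ± 0.36 at day 5 and 1.31 ± 0.49 at day 7. SLX1B and SULT1A4 have copies whose promoters are identical, and reads of such genes may have been split between copies.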

How the data were processed

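Peaks came from 1 list that the authors deposited, called with the wild-type library against the knockout library as control. The submitters' processing notes name Genrich 1.0, ChIPseeker, deepTools, StringTie 1.3.4, DESeq2 and HISAT2 2.1 without their roles, and hg38 as the build. The deposited signal, score and −log10 p per peak are the caller's own values, the score being 1000 times signal over width to within 0.499, capped at 1000. Expression was deposited by the authors as TPM, whose depth is unknown. Per the series' design text, RNA of 2 technical duplicates was pooled per replicate and the 3 replicates were vials induced on different days. Cells with doxycycline but no guides were not analysed here.

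Genes are those of a RefSeq table of GRCh38.p14 sharing at least 1 base with a peak. Promoter windows were compared by edit distance, each as read on its gene's strand, and reverse complements were not compared. The expression test was limma 3.58.1 (R 4.3.3) after log2(TPM + 1), on rows with at least 1 TPM in at least 3 of 9 libraries. The 3 groups were the only term, so they share 1 spread. Pseudocounts understate changes of low genes. The test was tried on simulated data first. Symbols with an older name in the table were matched through the annotation's synonyms.

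The peaks, gene families and tests were chosen with earlier results of these data known. The genes and peaks named are the 10 of highest signal and of highest −log10 p, every isolated peak and dense region, overlapped family members, the 10 overlapped protein-coding genes of highest mean TPM and the 5 of smallest p at each time. The 7 defensin pairs, the 3 peaks of equal width, WASH9P, SMG1P6, OR7E157P, OR7E154P and the promoter windows were picked after their values were seen. Read depths of the immunoprecipitation libraries were not used here. A gene that the naming rule gives is not reported here.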

Additional observations from a re-analysis of the deposited data

How the results depend on the processing

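Leaving peaks out by their midpoint gave the same 280. With only peaks of −log10 p of at least 3, 21 remained, and their median width was 1973 bp. Of these, 57.1% overlapped a gene and 28.6% a protein-coding gene. When the 21 were joined anew, no region reached the number of peaks that makes it dense, which gave 0% in dense regions. Of the 21, 6 lay in the dense regions formed by all 280. The 75.0% in dense regions became 66.4% with a joining distance of 10 kb, 75.0% with 1 Mb and 82.9% when 5 peaks made a region dense. The share overlapping a gene became 70.4% when at least 50% of the peak had to lie in it, 92.1% within 10 kb and, as an alternative added after seeing the data, 64.3% without LOC124901865. For protein-coding genes it was 32.5% and 65.7% under the first 2 of these. Isolated peaks numbered 35 with a limit of 100 kb and 25 with 5 Mb. Leaving out the 6 peaks at the largest gene-free stretches, also added later, moved the share in dense regions to 76.6% and the gene share to 78.8%.

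The count of overlapped genes passing limma's adjusted test was 0 at both times in all 16 fits, including a pseudocount of 0.1, no filter, a higher minimum, only the groups compared, each library centred on its median, and the fits without each of the 9 libraries (0 to 0). The lowest adjusted p of a named gene over them was 0.824. In the replicate block fit the count was also 0 at both times, while 3 of 28 had an unadjusted p under 0.05 at each, against 5.12% of all rows at day 5 and 5.98% at day 7. Same-numbered libraries deviated together with r over 0.1 in 8 of 9 pairs, from 0.0805 to 0.436, and a library's best match had its own number in 16 of 18 cases, a hint from the data that a number marks a shared induction day. The labels do not say so, and r over 0.1 was required of every pair, so the fit without the block was kept. With 1 library on each side, no peak has an error.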
